A study of Homo sapiens with 6 samples.

Results

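The 77 genes described here have symbols that begin with MRPL or MRPS, the names given to proteins of the mitochondrial ribosome. They were chosen by symbol: a protein-coding gene row whose identifier maps to MRPL or MRPS followed by a number and, at most, the letter A or B. The 77 genes, 49 MRPL and 28 MRPS, are among 78932 gene rows, of which 17677 had enough reads to be tested. The rule uses symbols and no measured value, although it was set with earlier results of these data known. It takes in MRPS36, whose product is now assigned to another complex, and leaves out MRPS18C.

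The mitochondrial ribosome translates the messenger RNAs encoded by mitochondrial DNA, which specify core subunits of the respiratory chain and of ATP synthase. Its ribosomal RNAs come from the mitochondrial genome, whereas its proteins are all encoded in the nucleus, made in the cytosol and imported. The small subunit binds the messenger RNA and decodes it, and the large subunit forms peptide bonds and feeds the new chain into the inner membrane. Some of these proteins have homologues in bacterial and cytosolic ribosomes, some in bacterial ribosomes alone, and others occur only in mitochondria. Acute myeloid leukemia cells are known to be sensitive to inhibitors of mitochondrial translation, and translation was not measured here.

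RNA was sequenced from Karpas-45, an established human T-cell leukemia line whose labels give leukemic blasts from bone marrow. Cells labelled shMEF2CKD2, genotype MEF2C KD, carried a lentiviral short hairpin RNA against MEF2C, a transcription factor of the MADS-box family, and cells labelled scramble control, genotype WT, served as control. The MEF2C vector is described as GFP-linked, with GFP-positive cells sorted 120 hours after transduction, and the labels give both groups as untreated. Both groups have 3 libraries labelled technical replicates, from 1 cell line and with 1 hairpin against MEF2C, so a p-value here reflects the spread among technical replicates and not among separate cultures.

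Reads assigned to genes ran from 45560303 to 97077335 per library. MEF2C itself received 2, 0 and 0 reads in the MEF2C hairpin libraries and 2, 1 and 0 reads in the scramble libraries, at or under the detection floor of 3 reads in each, so the targeted gene cannot check the labels and gives no fold change. All 12 T-lineage markers examined were detected. Their sum was 3698 to 3795 CPM (a gene's reads scaled to the library's total) in MEF2C hairpin libraries. In scramble libraries it was 3489 to 3585 CPM. Of the 12, 8 were higher (66.7%) and 0 lower in MEF2C hairpin, beside 14.1% and 31.5% of tested genes of like expression. Markers of B cells (5 genes, of which 2 were tested and 0 called) summed to 4.03 to 4.18 CPM in MEF2C hairpin and 3.03 to 3.60 CPM in scramble libraries, and myeloid markers (6 genes, of which 3 were tested and 0 called) to 1.64 to 2.54 CPM in MEF2C hairpin and 1.78 to 2.13 CPM in scramble libraries. Among these, PAX5, MS4A1 and CD33 each had reads in at most 2 of the 6 libraries. At an unadjusted p under 0.05, edgeR had 1 B-cell marker higher and 0 myeloid markers. Reads aligned to several places took 16.1% of reads in MEF2C hairpin replicate 3 and between 3.56% and 6.86% in the other libraries. The part of these differences in the results below was not tested.

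Most mitochondrial ribosomal protein genes differed little between the groups, and those that passed the test were nearly all lower with the MEF2C hairpin. The 19 lower genes fell by 6.01% (MRPS16) to 18.3% (MRPS6). Of 76 tested members, 19 were lower and 1 was higher by edgeR's quasi-likelihood test at an adjusted p under 0.05. Among all tested genes 15.3% were lower and 13.5% were higher. The small subunit held 12 lower and 0 higher of 28 genes, and the large subunit 7 lower and 1 higher of 48. At an unadjusted p under 0.05 edgeR also had 0 small-subunit genes higher, and DESeq2 and limma-voom called 0. Median log2 fold changes, MEF2C hairpin over scramble, were -0.09 for the small subunit and -0.03 for the large subunit. All tested genes gave 0.00, but their median scramble level was lower, at 10.9 CPM beside 39.0 CPM for the tested members. Among genes of 20 to 50 scramble CPM, medians were -0.041 (small subunit), -0.045 (large subunit) and -0.010 (all tested). At 50 to 100 CPM the same order gave -0.134, -0.031 and -0.030. At 5 to 20 CPM it gave -0.262, -0.019 and 0.038, and at 100 CPM and over -0.066, -0.020 and -0.055. The difference between the subunits was not tested. The count of lower small-subunit genes was 7 without scramble replicate 2 and ran from 9 to 14 without any other single library, while that of the large subunit ran from 5 to 8. The large-subunit median was -0.059 without scramble replicate 1 and -0.019 without scramble replicate 3. A correction for GC content and exonic length gave 14 lower and 1 higher small-subunit genes, and 12 lower and 5 higher large-subunit genes. The medians were then -0.079 and -0.059, which lie closer together. Among all 17677 tested genes this correction gave 2768 lower and 2605 higher.

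**Figure D1:**
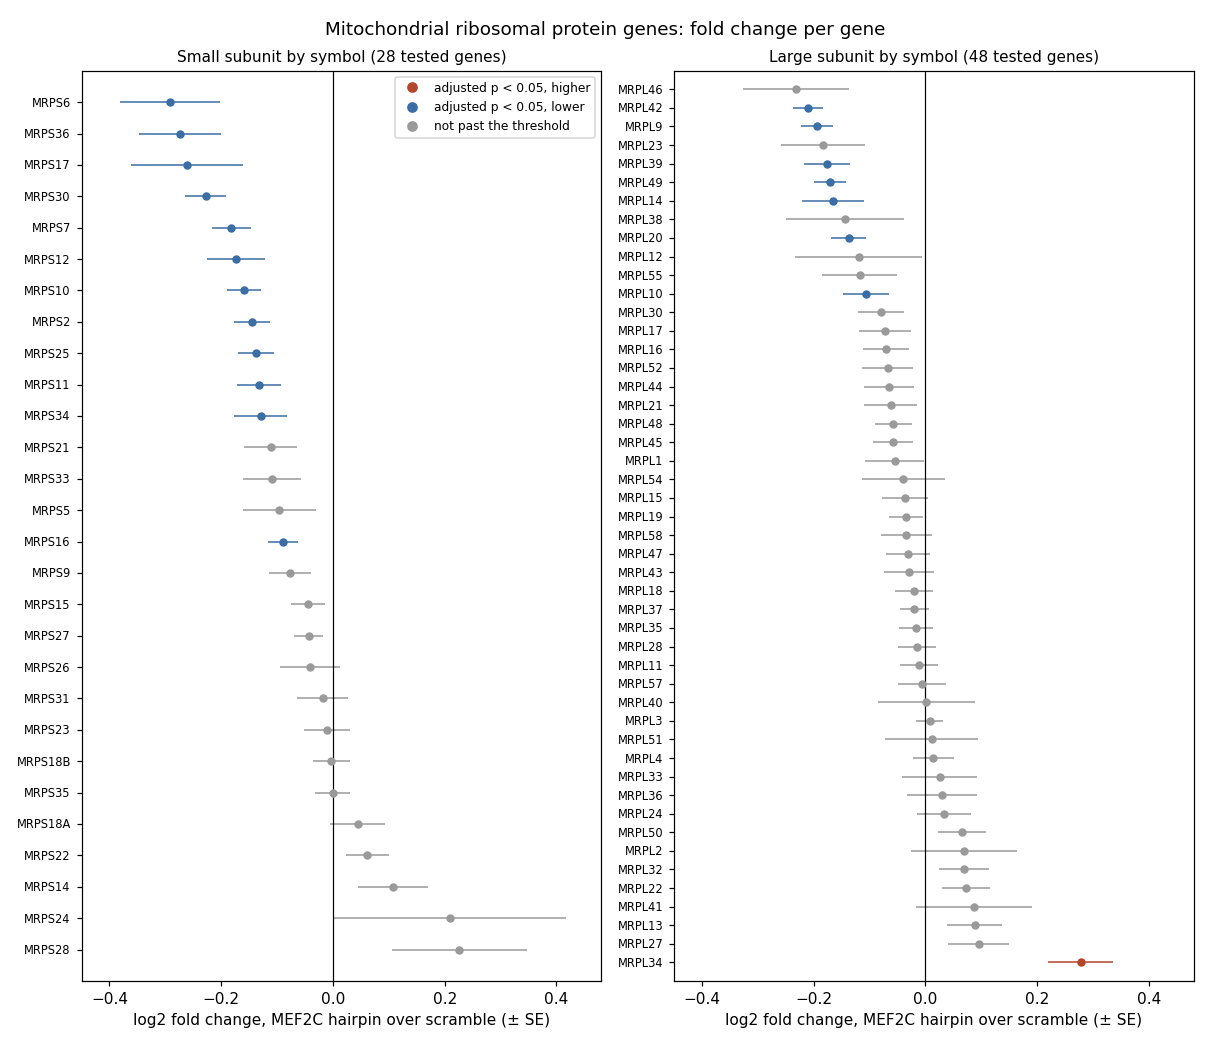
Log2 fold change, MEF2C hairpin over scramble, with its standard error for each of the 28 small-subunit and 48 large-subunit genes tested (n = 3 libraries a group). Colours mark adjusted p under 0.05, which 12 small-subunit genes reached on the lower side, against 7 lower genes and MRPL34 on the higher side in the large subunit.

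The libraries of the groups lay apart for 25 members, with all 3 MEF2C hairpin libraries below all 3 scramble libraries for 22 members and above them for 3. Over all tested genes these shares were 20.5% below and 19.5% above. The point estimate was below 0 for 56 of the 76 tested members, 23 of 28 in the small subunit and 33 of 48 in the large subunit. It was below 0 for 8669 of all 17677 tested genes and for 6346 of the 12162 tested protein-coding genes. Estimates ran from -0.29 to 0.23 in the small subunit and from -0.23 to 0.28 in the large subunit.

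The share of lower genes rises with expression level across the whole dataset, so members were also set beside all tested genes of the same scramble CPM. In the class of 5 to 20 CPM, 3 of 5 small-subunit and 0 of 12 large-subunit genes were lower, beside 8.66% of all tested genes. Of genes between 20 and 50 CPM, 2 of 9 in the small subunit and 3 of 20 in the large subunit were lower, beside 455 of all 2676. In the class of 50 to 100 CPM the counts were 6 of 10 and 3 of 13, beside 29.9%, and at 100 CPM and over 1 of 2 and 1 of 3, beside 46.4%. The remaining 2 tested members, MRPS24 and MRPS28, lay under 5 CPM, and neither was called.

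Applied to the small subunit's own mix of classes, the rates of all tested genes gave 21.1% lower, beside 42.9% among the small-subunit genes. The same calculation gave 20.3% for the large subunit, beside 14.6% among its genes. Upward calls were scarcer than in genes of like expression in both subunits: 0% of small-subunit and 2.08% of large-subunit genes were higher, beside class rates of 16.7% for the small and 17.8% for the large subunit. These shares describe the lists and carry no test. With the correction for GC content and exonic length, the lower counts were larger in both subunits, as given above, and higher calls in the large subunit numbered 5. Rates of like expression were not computed with that correction.

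**Figure D2:**
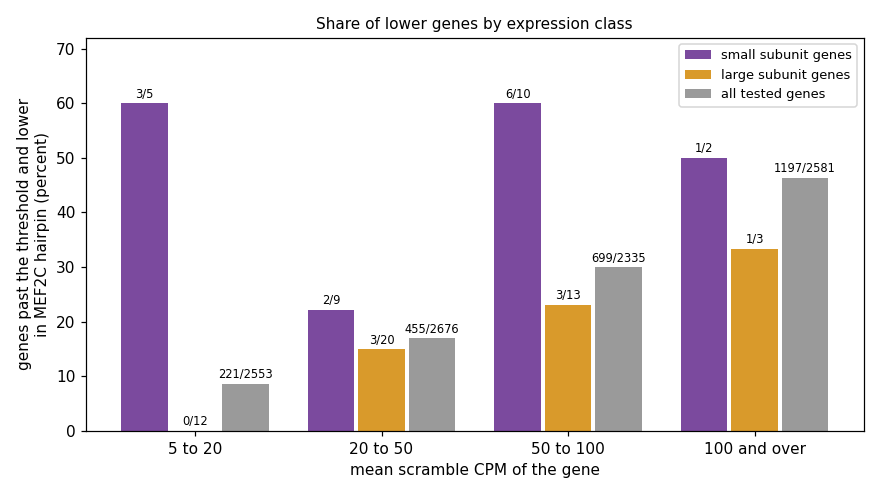
Percent of genes past the threshold and lower in MEF2C hairpin libraries, by the gene's mean scramble CPM, for small-subunit genes, large-subunit genes and all tested genes, with lower over tested printed on each bar. In the class of 50 to 100 CPM, 6 of 10 small-subunit genes were lower, against 3 of 13 large-subunit genes and 699 of 2335 tested genes, and the class under 5 CPM is left out.

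Summed over all members of a subunit, the level was lower in MEF2C hairpin libraries for both. The 28 small-subunit genes summed to 1260.3, 1256 and 1256 CPM in MEF2C hairpin replicates 1 to 3 and to 1318, 1343 and 1341 CPM in scramble replicates 1 to 3. The 49 large-subunit genes summed to 2208, 2205 and 2183 CPM in MEF2C hairpin libraries and to 2223, 2285 and 2316 CPM in scramble libraries. The means differed by -5.73% for the small subunit and by -3.34% for the large subunit. These sums go by symbol. Summed by structure, with MRPS30 and MRPS18A in the large subunit and MRPS36 left out, the means differed by -5.34% (small) and -3.58% (large). Abundant genes weigh most in such sums, and abundant genes leaned lower across the dataset. Median log2 fold changes of all tested genes were -0.030 at 50 to 100 CPM and -0.055 at 100 CPM and over. The part of that trend in the sums was not tested. All 3 MEF2C hairpin libraries lay below all 3 scramble libraries in both sums, by a narrow gap in the large subunit. The ratio of the small-subunit sum to the large-subunit sum was 0.572 ± 0.00301 in MEF2C hairpin and 0.586 ± 0.00700 in scramble libraries (SD, n = 3 each). In bulk RNA a lower level per cell and fewer cells with a high level cannot be told apart.

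**Figure D3:**
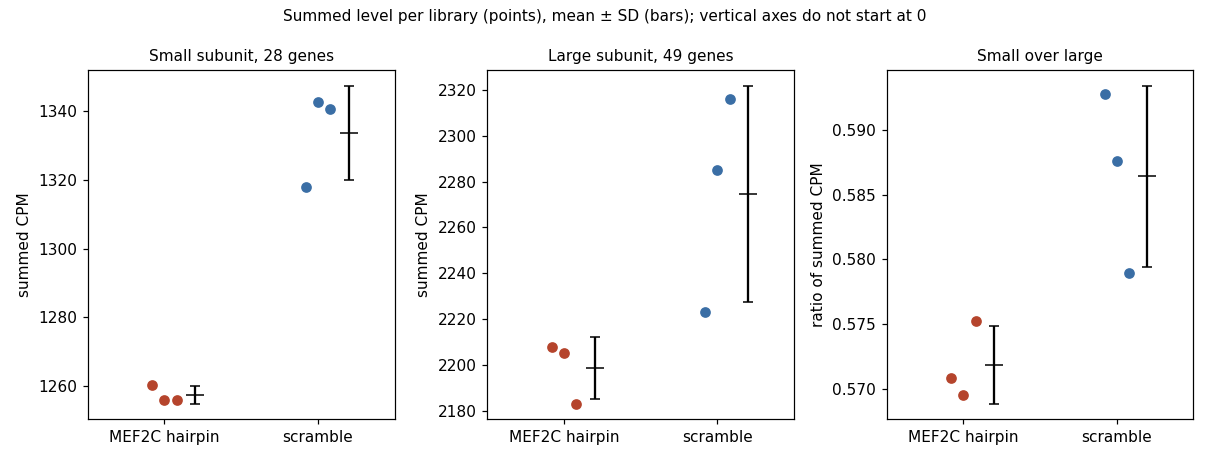
Summed CPM per library (points) with mean ± SD (n = 3 libraries a group) for the 28 small-subunit genes, the 49 large-subunit genes, and the ratio of the sums; the vertical axes do not start at 0. The 3 MEF2C hairpin libraries lie below the 3 scramble libraries in each panel.

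The largest decreases in the small subunit were in genes of low level. MRPS6, homologous to a protein of the bacterial small subunit, had 7.54, 7.4999 and 7.05 CPM in MEF2C hairpin libraries and 8.02, 9.84 and 9.32 CPM in scramble libraries. The groups did not overlap, with a log2 fold change of -0.29 (0.0900 SE; adjusted p = 0.0119, edgeR). This call was lost without scramble replicate 2 or 3, with adjusted p from 0.00294 to 0.0876 over 16 alternatives. MRPS17, whose relatives occur in all ribosomes, had 5.64, 6.98 and 5.53 CPM in MEF2C hairpin libraries and 7.57, 6.99 and 7.37 CPM in scramble libraries. The highest MEF2C hairpin value lay just below the lowest scramble value, and its call (log2 fold change -0.26 with SE 0.100, and adjusted p = 0.0462 by edgeR) failed in 10 of 16 alternatives (adjusted p from 0.00917 to 0.186). Exons of other genes cover 27.003% of MRPS17.

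Among large-subunit proteins shared with all ribosomes 2 genes of 16 were lower (12.5%, beside 21.0% in tested genes of like expression). Small-subunit proteins of this class held 6 lower genes of 11, beside 19.2% lower at the rates of all tested genes of like expression. MRPS7, a protein of the head of the subunit, had 58.5, 58.8 and 57.7 CPM in MEF2C hairpin libraries and 63.3, 67.6 and 67.8 CPM in scramble libraries. Its groups were well apart, with a log2 fold change of -0.18 (0.0350 SE; adjusted p = 8.52e-05, edgeR). MRPS10, another head protein, had 77.1, 77.3 and 76.6 CPM in MEF2C hairpin libraries and 88.0, 85.3 and 84.6 CPM in scramble libraries. The 3 MEF2C hairpin values of MRPS10 were nearly equal, below every scramble value, and the log2 fold change was -0.16 (SE 0.0302, edgeR adjusted p = 7.16e-05). MRPS2 averaged 67.1 ± 0.959 CPM in MEF2C hairpin and 74.2 ± 1.90 CPM in scramble libraries (SD, n = 3 each), and its log2 fold change was -0.14 (edgeR adjusted p = 0.000597). MRPS7, MRPS10 and MRPS2 kept their calls in all 16 alternatives.

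MRPS12, a protein of the decoding centre, averaged 22.0 ± 0.181 CPM in MEF2C hairpin and 24.9 ± 1.37 CPM in scramble libraries (SD, n = 3 each; log2 fold change -0.17, SE 0.0527). By edgeR its adjusted p was 0.0106, and over the alternatives it ran from 0.000175 to 0.0790, the last without scramble replicate 2. MRPS11, a protein of the platform near the messenger RNA exit, averaged 42.3 ± 1.48 CPM in MEF2C hairpin and 46.4 ± 0.177 CPM in scramble libraries (SD, n = 3 each; log2 fold change -0.13, SE 0.0396). By edgeR its adjusted p was 0.00960, and over the alternatives it ran from 0.00979 to 0.0728, the last on leaving out MEF2C hairpin replicate 1. The other 5 tested members of this class were not called. Among them MRPS14 had a log2 fold change of 0.11 and MRPS24 of 0.21, with edgeR adjusted p of 0.216 and 0.514.

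Of the small-subunit proteins with bacterial relatives alone, 2 of 4 were lower, MRPS6, above, and MRPS16, beside 18.5% at the like-expression rates. MRPS16 was among the most abundant, with 115, 112 and 110.4 CPM in MEF2C hairpin libraries and 117, 121 and 121 CPM in scramble libraries. The groups lay apart by a small margin (log2 fold change -0.09 with SE 0.0269, and adjusted p = 0.00984 by edgeR). The call of MRPS16 was lost without MEF2C hairpin replicate 3 and when the trend with expression was removed, with adjusted p from 0.0061 to 0.188.

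Of 10 small-subunit proteins found only in mitochondria 2 were lower, which is 20% beside 25.1% at the like-expression rates, so their count did not exceed the background. MRPS25 averaged 65.5 ± 1.52 CPM in MEF2C hairpin and 72.0 ± 0.309 CPM in scramble libraries (SD, n = 3 each; log2 fold change -0.14 with SE 0.0324, and adjusted p = 0.00102 by edgeR). MRPS34, in which inherited variants cause a mitochondrial disease of infancy, had 51.4, 46.2 and 49.4 CPM in MEF2C hairpin libraries and 48.9, 54.8 and 56.7 CPM in scramble libraries. These values overlap, and the call of MRPS34 (log2 fold change -0.13 with SE 0.0470, and adjusted p = 0.0385 by edgeR) failed in 9 of 16 alternatives (adjusted p from 2.15e-06 to 0.2501). MRPS18B, MRPS35 and MRPS23 differed by 0.00, 0.00 and -0.01 on the log2 scale, and MRPS22 by 0.06 (edgeR adjusted p from 0.265 to 0.991).

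The letter in a symbol does not always give the place of the protein, and 3 MRPS genes are affected. Structures of the human particle place the products of MRPS30 and MRPS18A in the large subunit. The product of MRPS36 is now assigned to the 2-oxoglutarate dehydrogenase complex of the citric acid cycle and not to the ribosome. MRPS30 had 58.9, 61.3 and 64.0 CPM in MEF2C hairpin libraries and 75.7, 69.2 and 70.5 CPM in scramble libraries. The groups of MRPS30 lay well apart, with a log2 fold change of -0.23 (0.0366 SE; adjusted p = 5.61e-06, edgeR), and the call held in all 16 alternatives. MRPS36 had 12.2, 11.7 and 12.5 CPM in MEF2C hairpin libraries and 14.1, 16.5 and 13.4 CPM in scramble libraries (log2 fold change -0.27 with SE 0.0727, and adjusted p = 0.00344 by edgeR). Its call was lost without scramble replicate 2, where the adjusted p was 0.0682, the highest of a range from 0.00128. MRPS18A had a log2 fold change of 0.04 (edgeR adjusted p = 0.564). Counted by structure, 10 of 25 small-subunit (40%) and 8 of 50 large-subunit genes (16%) were lower. Over all tested genes the share was 15.3%, and over tested protein-coding genes 20.8%. By structure, 2 of 14 large-subunit proteins with bacterial relatives alone were lower (14.3%, beside 18.6% at the like-expression rates). Of 20 large-subunit proteins found only in mitochondria 4 were lower (20%, beside 21.1%).

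**Figure D4:**
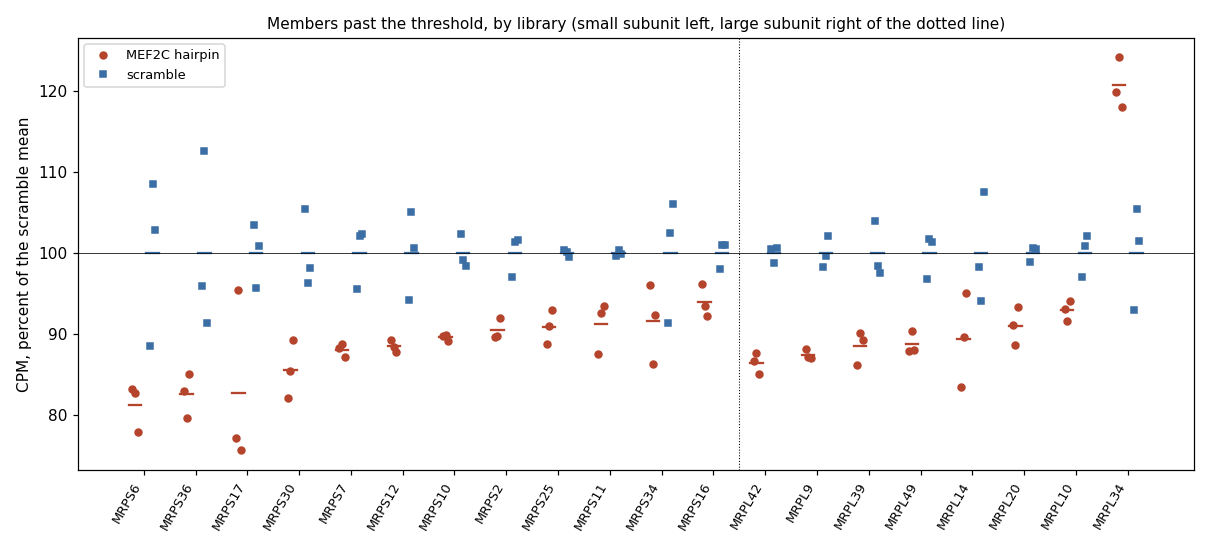
CPM of each library as a percent of the gene's scramble mean for the 20 members past the threshold, 12 of the small subunit at left and 8 of the large subunit at right; short lines are means of 3 libraries. The groups overlap for MRPS34 and MRPL14, and MRPL34 is the gene with the MEF2C hairpin libraries on top.

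In the large subunit the firmest decreases were in MRPL42 and MRPL9. MRPL42, found only in mitochondria, had 107, 108 and 105 CPM in MEF2C hairpin libraries and 124, 122 and 124 CPM in scramble libraries. The groups differed by far more than their spread (log2 fold change -0.21 with SE 0.0264, and adjusted p = 5.37e-08 by edgeR). MRPL9, which has bacterial relatives, had 84.8, 83.8 and 83.8 CPM in MEF2C hairpin libraries and 94.5, 95.8 and 98.2 CPM in scramble libraries (log2 fold change -0.19 with SE 0.0289, and adjusted p = 1.55e-06 by edgeR). The calls of MRPL42 and MRPL9 held in all 16 alternatives. On GRCh38 the gene models place MRPL42 at chr12:93467488-93516213 (plus strand), MRPL9 at chr1:151759643-151763564 (minus strand), MRPL34 at chr19:17292609-17306843 (plus strand), MRPS30 at chr5:44808925-44820428 (plus strand), MRPS7 at chr17:75261674-75266373 (plus strand) and MRPS10 at chr6:42206801-42217865 (minus strand). Exons of other genes, OAZ3 among them, cover 38.5% of MRPL9 and whether counting used strand is not stated, so its level is less certain.

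MRPL39 and MRPL49, both specific to mitochondria, and MRPL20, with bacterial relatives, were also lower in every alternative. MRPL39 averaged 39.3 ± 0.902 CPM in MEF2C hairpin and 44.4 ± 1.56 CPM in scramble libraries (SD, n = 3 each; log2 fold change -0.18, with adjusted p = 0.000913 by edgeR). MRPL49 averaged 88.0 ± 1.35 CPM in MEF2C hairpin and 99.2 ± 2.71 CPM in scramble libraries (SD, n = 3 each; log2 fold change -0.17, with adjusted p = 1.61e-05 by edgeR). MRPL20 averaged 71.6 ± 1.84 CPM in MEF2C hairpin and 78.6 ± 0.766 CPM in scramble libraries (SD, n = 3 each; log2 fold change -0.14, with adjusted p = 0.000819 by edgeR).

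Weaker calls were those of MRPL14, which lies at the interface between the subunits, and MRPL10, which carries the stalk that recruits translation factors. MRPL14 had 21.8, 23.4 and 24.8 CPM in MEF2C hairpin libraries and 25.6, 24.5 and 28.04 CPM in scramble libraries, which overlap. Its call (log2 fold change -0.17 with SE 0.0554, and adjusted p = 0.0210 by edgeR) was lost without scramble replicate 3 or MEF2C hairpin replicate 1 or 2, with adjusted p from 0.000436 to 0.199. MRPL10 had a log2 fold change of -0.11 (0.0411 SE; adjusted p = 0.0486, edgeR), and its call failed in 11 of 16 alternatives (adjusted p from 0.0144 to 0.165). MRPL12, which binds MRPL10 in the stalk, averaged 5.03 ± 0.735 CPM in MEF2C hairpin and 5.45 ± 0.334 CPM in scramble libraries (SD, n = 3 each), with adjusted p = 0.490 by edgeR. Exons of other genes cover 68.2% of MRPL12.

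MRPL34, with relatives in bacterial ribosomes, was the member that rose. It had 21.4, 22.2 and 21.1 CPM in MEF2C hairpin libraries and 16.6, 18.8 and 18.1 CPM in scramble libraries, with no overlap. The log2 fold change was 0.28 (SE 0.0577, edgeR adjusted p = 0.000231), and the call held in all 16 alternatives. Exons of ABHD8, a neighbouring gene, cover 13.2% of MRPL34. The share of MRPL34 reads that this overlap could touch was not tested.

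Levels were set beside each other per kilobase (kb) of exonic length. In the small subunit MRPS34, MRPS16 and MRPS10 ranked highest, at 44.6 ± 2.40, 40.2 ± 0.872 and 36.5 ± 0.170 CPM per kb in MEF2C hairpin and 48.8 ± 3.73, 42.8 ± 0.721 and 40.7 ± 0.839 CPM per kb in scramble libraries (SD, n = 3 each). The lowest in scramble libraries were MRPS24, MRPS6 and MRPS28, at 0.560 ± 0.0960, 1.71 ± 0.0633 and 2.65 ± 0.216 CPM per kb in MEF2C hairpin and 0.484 ± 0.0776, 2.11 ± 0.218 and 2.25 ± 0.248 CPM per kb in scramble libraries (SD, n = 3 each). In MEF2C hairpin libraries MRPS5, at 2.28 ± 0.111 CPM per kb (SD, n = 3), lay below MRPS28. MRPS28 and MRPS6 differed by less than their spread in the scramble libraries. Exons of other genes cover 23.2% of MRPS24, among them those of URGCP-MRPS24, and 35.8% of MRPS28, so both levels are less certain. The order depends on the length used: per kb of the principal transcript MRPS15, 8th by exonic length, ranked first at 83.2 CPM per kb in scramble libraries, with MRPS16 at rank 5 and MRPS10 at rank 9. On that scale MRPS6 was at 9.15 CPM per kb and MRPS24 at 1.79 CPM per kb in scramble libraries.

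In the large subunit MRPL37 and MRPL3, at 57.0 ± 1.14 and 55.1 ± 0.706 CPM per kb in scramble libraries (SD, n = 3 each), ranked first, followed by MRPL9. MRPL3, whose relatives lie near the peptidyl transferase centre, averaged 55.4 ± 0.962 CPM per kb in MEF2C hairpin libraries (SD, n = 3), with a log2 fold change of 0.01 (edgeR adjusted p = 0.867). MRPL46 and MRPL38 were the lowest tested, at 0.968 ± 0.0503 and 1.35 ± 0.0423 CPM per kb in MEF2C hairpin and 1.13 ± 0.0412 and 1.49 ± 0.0291 CPM per kb in scramble libraries (SD, n = 3 each). MRPL53 was the member that failed the filter, with 1, 0 and 0 reads in MEF2C hairpin and 0, 0 and 1 reads in scramble libraries, under the floor of 3 reads in each. Per kb of the principal transcript, MRPL20, at rank 13 by exonic length, ranked first at 109 CPM per kb in scramble libraries, above MRPL37 at 98.0, and MRPL46 was at 7.16 and MRPL38 at 2.90 CPM per kb in scramble libraries. Exons of other genes cover 41.1% of MRPL38, whose level is therefore less certain. Exons of CCDC142 cover 45.2% of MRPL53, and reads that match more than 1 gene are set aside in a summary line of the files. Whether this overlap bears on the reads of MRPL53 was not tested.

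**Figure D5:**
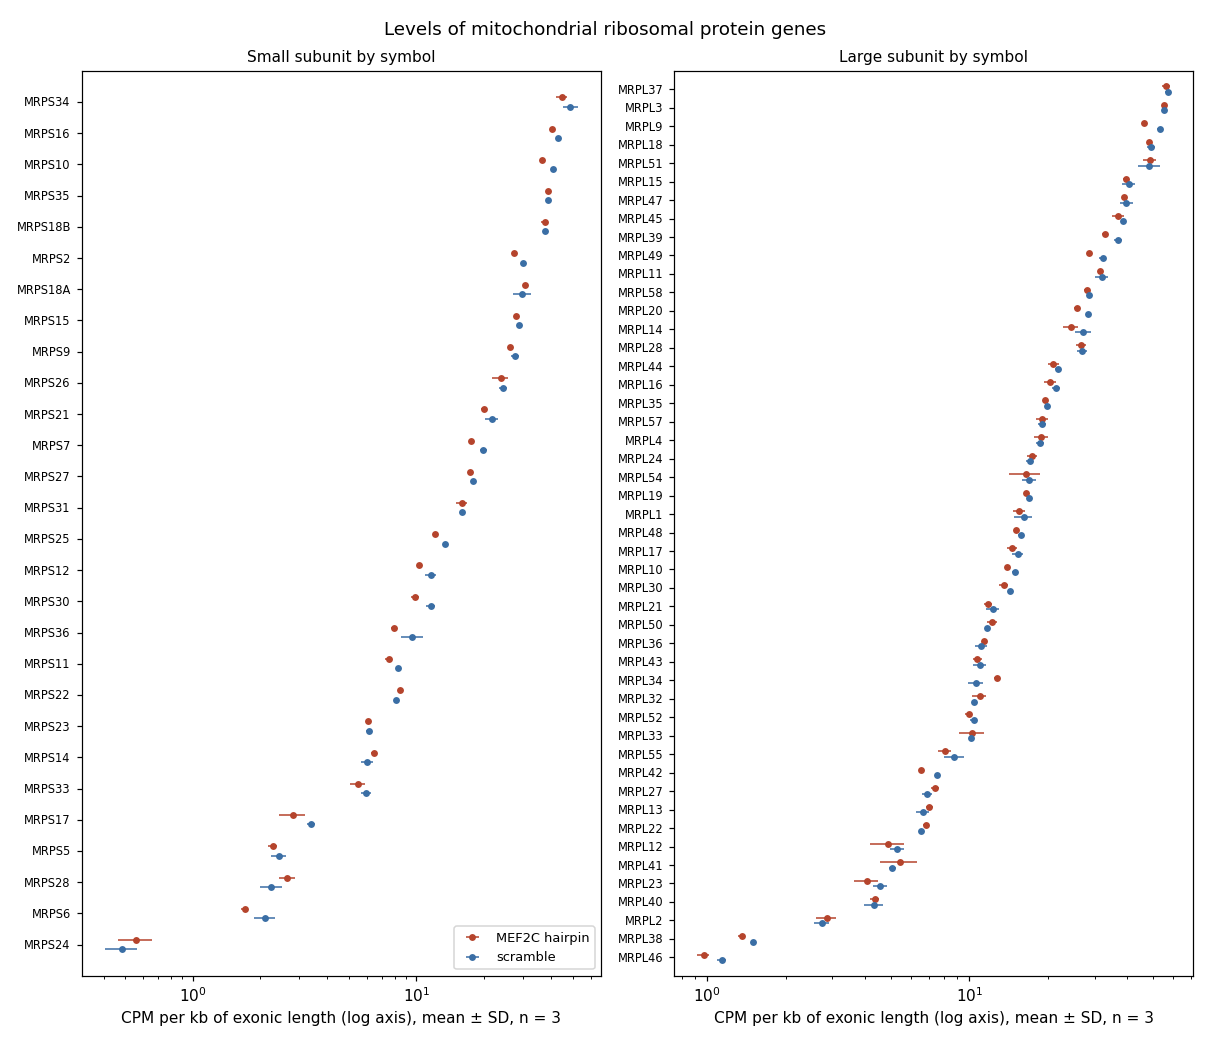
CPM per kb of exonic length on a log axis, mean ± SD over 3 libraries a group, for the tested members ranked by their scramble level. MEF2C hairpin and scramble values of a gene lie close together, at 56.2 and 57.0 CPM per kb for MRPL37, the highest, while levels between genes differ far more, down to 0.560 and 0.484 CPM per kb for MRPS24.

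Of the 77 members, 25 had 10% or more of their exonic bases covered by exons of other genes, and 9 of the 24 of these that were tested were lower. That share was 37.5%. Among members with less overlap, 6 of 18 small-subunit (33.3%) and 4 of 34 large-subunit genes (11.8%) were lower and 0 were higher. Over all tested genes 15.3% were lower and 13.5% higher, and over tested protein-coding genes 20.8% and 16.3%. The set of members with less overlap leaves out 10 called members: MRPL9, MRPL20, MRPL34, MRPL49, MRPS2, MRPS7, MRPS12, MRPS16, MRPS17 and MRPS25.

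A further 6 proteins of the mitochondrial ribosome have symbols outside the pattern, and 1 of their genes was lower (16.7%, beside 28.9% at the like-expression rates). DAP3, a GTP-binding protein of the small subunit also known from cell death signalling, averaged 99.3 ± 1.10 CPM in MEF2C hairpin and 105 ± 2.04 CPM in scramble libraries (SD, n = 3 each; log2 fold change -0.08 with SE 0.0277, and adjusted p = 0.0209 by edgeR). The count of lower genes in this list was 0 to 2 when single libraries were left out: 0 without scramble replicate 3 or MEF2C hairpin replicate 2 or 3, and 2 without scramble replicate 1 or MEF2C hairpin replicate 1. The median of the 6 genes was -0.04, beside -0.04 for the 76 tested members.

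Lists of genes that build or serve the mitochondrial ribosome are set beside the shares that all tested genes of like expression give. Of 27 assembly factors 9 were lower (33.3%, beside 21.3%) and 1 was higher (3.70%, beside 17.1%), with a median of -0.08, and without scramble replicate 2 the counts were 5 lower and 0 higher; without MEF2C hairpin replicate 2, also 0 were higher. The GTPase MTG2 averaged 94.5 ± 0.528 CPM in MEF2C hairpin and 107 ± 1.90 CPM in scramble libraries (SD, n = 3 each; log2 fold change -0.18, with adjusted p = 2.41e-06 by edgeR). The pseudouridine synthases RPUSD4 and TRUB2 had log2 fold changes of -0.22 and -0.14. The gene that rose was NSUN4, a methyltransferase of assembly, at 0.12 (edgeR adjusted p = 0.0177), named after its value was seen.

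Of 15 translation factors 3 were lower and 0 higher, and the lower share of 20% was close to the 22.6% of genes of like expression. They were GFM2, which recycles the ribosome, at -0.14, LRPPRC, which stabilises mitochondrial messenger RNAs, at -0.07, and the release factor family gene MTRF1 at -0.14. That count was 1 without scramble replicate 2 or without MEF2C hairpin replicate 1 or 2. Of 9 genes of mitochondrial DNA transcription and maintenance 3 were lower (33.3%, beside 26.0%): TFAM, which packages the DNA and starts its transcription, at -0.15 (edgeR adjusted p = 1.3e-05), the helicase TWNK at -0.16 and the polymerase POLG at -0.07.

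Of the 13 messenger RNAs that this ribosome translates 6 were lower and 0 higher, with a median of -0.12. The lower share of 46.2% is at the background: 46.4% of all tested genes at 100 CPM and over were lower. MT-ND4L, MT-ND5 and MT-CO1, which have the smallest adjusted p, had log2 fold changes of -0.24, -0.34 and -0.09. Removing the trend with expression level left 3 lower and 1 higher of these 13, and 2215 lower and 2426 higher of all 17677 tested genes. Among 8 tested nuclear regulators of mitochondrial genes 4 were lower (50%, beside 34.9% at the like-expression rates), among them YY1 at -0.12, PPRC1 at -0.10 and the ETS-family factor GABPA at -0.10. Removing the trend left 1 lower and 1 higher, and PPARGC1A, not tested, was near 0 CPM.

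Cytosolic ribosomal protein genes went both ways, with 13 higher (16.5%, beside 11.9% at the like-expression rates) and 17 lower (21.5%, beside 44.1%) of 79 and a median of -0.02. RPS2 had a log2 fold change of -0.23, RPL13 of -0.14 and RPL6 of -0.11 (edgeR adjusted p = 2.06e-11, 5.25e-07 and 8.26e-06). When the trend with expression was removed, the balance turned to 31 higher and 4 lower. Under the same setting small-subunit genes of the mitochondrial ribosome gave 10 lower and 0 higher, and large-subunit genes 8 lower and 1 higher. All 17677 tested genes gave 2215 lower and 2426 higher under that setting. The lists differ in level, with median scramble levels of 475 CPM for the cytosolic genes and 39.0 CPM for the tested members. Removing the trend therefore need not move them alike. Without single libraries the cytosolic counts ran from 7 to 20 higher and from 11 to 25 lower: 7 and 11 without MEF2C hairpin replicate 2, 8 higher without scramble replicate 3 and 20 higher without MEF2C hairpin replicate 3.

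Promoters of the members are shown because genes of this family are known to share sites for NRF1, for ETS-family factors such as GABPA and for YY1. RefSeq promoters on GRCh38.p14, 250 bases before to 50 bases after the start, were at hand for 68 of the 77 members. Letters searched on both strands, without overlap between motifs being excluded, were, for NRF1, GCGC, any base and TGCGC in a row, and CCGGAAG for the ETS family and AANATGGCG for YY1, where N is any base. The ETS letters occurred in 41.2% of the members' promoters, in 19.5% of those of tested genes and in 10.7% of all promoters. The YY1 letters occurred in 26.5% of the members' promoters, 6.85% of those of tested genes and 3.37% of all promoters, and 16 of their 20 matches in members began after the start. The NRF1 letters occurred in 11.8% of the members' promoters, 12.04% of those of tested genes and 6.28% of all promoters.

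At least 1 of the 3 was found in 9 of 17 promoters of lower members and in 36 of 49 promoters of tested members that were not called. Among promoters of all tested genes it was 3650 of 10903 (33.5%). By subunit the shares were 61.5% of 26 small-subunit and 71.4% of 42 large-subunit promoters. ETS letters were found in 5 of 17 promoters of lower members (29.4%) and in 22 of 49 of those not called (44.9%). For NRF1 letters these counts were 1 of 17 (5.88%) and 7 of 49 (14.3%). The promoters printed below are examples and do not stand for these shares. The 250 bases before the start are given for MRPS34 and MRPS10, which were lower and carry ETS letters, for MRPL14, which was lower and carries NRF1 letters, and for MRPL34, which rose and carries none of them there. Capitals mark the matches. They lie on GRCh38.p14 at chr16:1773135-1773384 (minus strand), chr6:42217862-42218111 (minus strand), chr6:44127309-44127558 (minus strand) and chr19:17292323-17292572 (plus strand). A match is a description of the letters, and binding was not measured.
MRPS34: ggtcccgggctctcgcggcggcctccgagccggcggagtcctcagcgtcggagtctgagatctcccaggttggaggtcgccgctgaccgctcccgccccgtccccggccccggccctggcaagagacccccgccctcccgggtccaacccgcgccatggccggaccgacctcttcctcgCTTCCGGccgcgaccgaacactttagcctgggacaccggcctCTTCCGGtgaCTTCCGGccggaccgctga
MRPS10: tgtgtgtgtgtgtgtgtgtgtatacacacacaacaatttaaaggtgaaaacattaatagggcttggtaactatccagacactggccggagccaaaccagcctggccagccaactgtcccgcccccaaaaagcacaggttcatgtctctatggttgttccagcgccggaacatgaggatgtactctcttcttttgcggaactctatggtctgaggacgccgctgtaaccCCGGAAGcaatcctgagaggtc
MRPL14: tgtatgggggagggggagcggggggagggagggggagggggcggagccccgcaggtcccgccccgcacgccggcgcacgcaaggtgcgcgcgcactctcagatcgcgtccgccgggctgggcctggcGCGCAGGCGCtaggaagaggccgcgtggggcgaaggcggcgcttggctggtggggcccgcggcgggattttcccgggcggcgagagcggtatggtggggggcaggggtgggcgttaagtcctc
MRPL34: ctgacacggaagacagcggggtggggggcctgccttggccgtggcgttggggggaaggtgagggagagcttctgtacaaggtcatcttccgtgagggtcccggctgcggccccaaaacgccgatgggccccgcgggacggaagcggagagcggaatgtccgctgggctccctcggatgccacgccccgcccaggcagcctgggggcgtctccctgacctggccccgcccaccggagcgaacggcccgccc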

How the data were processed

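TRIzol extraction and TruSeq libraries are given per the labels' protocols, and Trim Galore, STAR, HTSeq and hg38 per the submitters' processing notes, whose versions, annotation release and strand setting are not given. The deposited values are raw read counts per gene, 1 file per library. The 5 summary lines, 19.2% to 31.4% of reads, stayed out of library sizes.

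Members and lists were chosen with earlier results of these data known. Symbols came from a table of gene identifiers. Gene types, lengths, positions and exon overlaps came from GENCODE 29 on GRCh38. The submitters used another release, since only 90.0% of tested genes had a GC value in GENCODE 29. Exon overlaps are therefore approximate, and genes without a GC value received no GC and length correction. Genes passing filterByExpr (minimum count 10) were scaled by TMM and tested with edgeR 4.0.16 (R 4.3.3), quasi-likelihood, robust, group as the only term, with Benjamini-Hochberg adjustment over 17677 genes. SE was derived from the log2 fold change and the F statistic. CPM uses TMM-scaled library sizes. Named members are those past the threshold and those at the ends of the level ranking, and in other lists up to 3 with the smallest adjusted p. Alternatives were other scalings, a cyclic loess that removes the trend with expression followed by limma 3.58.1, other filters, each library left out, a replicate block, a GC and length offset, DESeq2 1.42.0 and limma-voom. The test was tried on simulated counts. Chi-square per gene between libraries of a group was 3.31 to 4.50, so all 6 counted as separate libraries. Floors of 3 reads, at most 0.0673 CPM, cover counting error only. A further marker list is not reported here.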

Additional observations from a re-analysis of the deposited data

How the results depend on the processing

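Of 20 called members, 11 kept their call in all 16 alternatives, 9 lost it in at least 1, and 0 changed direction. Of the 56 not called, 15 were called in at least 1 alternative. The GC and length offset gave 12 lower and 5 higher large-subunit genes and 1 higher small-subunit gene. Medians were then -0.079 for the small and -0.059 for the large subunit. Among all 17677 tested genes that offset gave 2768 lower and 2605 higher. A replicate block gave 12 lower small-subunit and 6 lower large-subunit genes, and same-numbered libraries did not deviate together (r of -0.0135, -0.0137 and -0.00314), so the numbers do not pair the samples. The replicate block with that offset gave 12 lower and 4 higher large-subunit genes, 1 higher small-subunit gene and a small-subunit median of -0.075. Members with under 10% exon overlap gave 6 lower small-subunit (33.3%), 4 lower large-subunit (11.8%) and 0 higher genes, from fewer genes. Over all tested genes 15.3% were lower.

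Without single libraries, the small-subunit median ran from -0.11 to -0.071 and the lower count from 7 to 14, and the large-subunit median from -0.059 to -0.019 and its lower count from 5 to 8. Lower counts in the lists ran from 0 to 2 for proteins outside the symbol pattern, 5 to 9 for assembly (0 to 1 higher), 1 to 3 for translation factors, 2 to 4 for mitochondrial DNA maintenance, and 11 to 25 for cytosolic ribosomal proteins (7 to 20 higher). Removal of the trend with expression gave 0 lower genes outside the pattern and 2 higher in assembly. It gave 3 lower and 1 higher of the mitochondrial messenger RNAs, and 1 lower and 1 higher regulator. Cytosolic genes then numbered 4 lower and 31 higher, and all 17677 tested genes 2215 lower and 2426 higher. Testing with no filter gave 0 lower outside the pattern, and a filter of 1 CPM gave 3 higher in assembly and 20 higher cytosolic genes. The GC and length offset gave 3 higher in assembly (3 with the block), 1 higher translation factor and 26 lower cytosolic genes. Causes were not tested.

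Levels per kb of the principal transcript, an alternative chosen after seeing the data, were in scramble libraries 7.16 for MRPL46, 74.2 for MRPL9, 2.90 for MRPL38, 98.0 for MRPL37, 87.7 for MRPL3, 9.15 for MRPS6, 45.4 for MRPS16, 1.79 for MRPS24 and 4.81 for MRPS28.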

Other observations

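Tested members stood head to head with another protein-coding gene in 17 of 76 cases (22.4%), against 11.3% of tested protein-coding genes. Counted were starts on opposite strands with a gap of at most 1000 bases or an overlap of at most 100 bases. Pairs with a longer overlap were left out. The arrangement was found for 2 of 28 small-subunit and 15 of 48 large-subunit genes. One such pair joins the subunits: MRPS11, lower at a log2 fold change of -0.13, and MRPL46, at -0.23 with an edgeR adjusted p of 0.0640, have starts 34 bases apart. In 3 other pairs the partner alone was called. The chaperonin gene TCP1 was lower at -0.10 beside MRPL18 at -0.02, and the complex I gene NDUFS6 was lower at -0.12 beside MRPL36 at 0.03. PNPLA7 was higher at 0.23 (edgeR adjusted p = 0.0015) beside MRPL41 at 0.09. In 2 pairs the member alone was called: MRPL10 beside LRRC46, at 0.21, and MRPS34 beside EME2, at 0.04. These pairs were chosen after their values were seen.

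The files hold 80 pseudogene rows that carry a symbol of the family. Their reads summed to 5.09, 4.37 and 4.80 CPM in MEF2C hairpin and 5.34, 5.13 and 5.42 CPM in scramble libraries, and 2 of the rows were tested, with 0 called and 0 at an unadjusted p under 0.05. Most of the sum came from MRPS31P5, at 4.21, 3.83 and 4.201 CPM in MEF2C hairpin and 4.80, 4.28 and 4.57 CPM in scramble libraries. MRPS31 itself had a log2 fold change of -0.02 (edgeR adjusted p = 0.827).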
